A study of Mus musculus with 4 samples.

Results

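The regions described here are promoters with Runx2 peaks at days 9 and 28 of osteoblast differentiation and no peak at day 0. They were chosen by their peaks: overlapping peaks (by 1 bp or more) of the 3 deposited lists were joined, which gave 67703 regions, and a region was retained if peaks from days 9 and 28 but not from day 0 fell in it and if its centre lay within 1 kb of the transcriptional start site (TSS) of a protein-coding transcript. This gave 1884 member regions, with 1871 protein-coding genes that have a TSS within 1 kb of a member centre. The presence of peaks, their scores and the distance to a TSS chose the members, so that scores and distances are given below as a description, whereas sequence was not used to choose them.

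Runx2 occupancy was measured by chromatin immunoprecipitation with an antibody to Runx2 (M-70) followed by sequencing in MC3T3-E1 subclone 4 cells, a preosteoblast line derived from calvaria of C57BL/6 mice and used here at passages 28 to 31. Cells were taken while proliferating (day 0), while depositing matrix (day 9) and while mineralizing (day 28), with osteogenic differentiation driven by ascorbic acid and beta-glycerophosphate in the medium. The authors pooled 2 biological libraries per stage before they called peaks, so each stage has 1 peak list and no comparison between stages has replicate error or a test. All values come from a single subclone of 1 cell line.

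Runx2 is the runt-domain transcription factor that commits mesenchymal cells to the osteoblast lineage and is needed for bone formation. It binds DNA with its partner Cbfb at short elements with the core TGTGGT, read as ACCACA on the opposite strand. Its best known promoter targets include the osteocalcin and bone sialoprotein genes, which are switched on late in osteoblast maturation. Promoters of mammalian genes are of 2 broad kinds, CpG islands, which many widely expressed genes have, and CpG-poor promoters, which are more often tissue-restricted.

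Both kinds of promoter occurred among the members. The osteocalcin genes Bglap and Bglap2 on chromosome 3 are shown first, because their members scored 3100, a value that many peaks share, at both stages. The following stretches, in the direction of transcription and from genome build mm9 (NCBIM37), lie upstream of the TSS of Bglap (chr3:88188475-88188560, minus strand) and Bglap2 (chr3:88182710-88182795, minus strand), outside annotated exons, with the Runx core in capitals. The last line is the more upstream element of Bglap2 (chr3:88183185-88183270, minus strand).
Bglap: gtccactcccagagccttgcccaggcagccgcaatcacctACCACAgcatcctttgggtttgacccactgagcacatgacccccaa
Bglap2: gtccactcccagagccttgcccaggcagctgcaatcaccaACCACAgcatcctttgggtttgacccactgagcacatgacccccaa
Bglap2 upstream: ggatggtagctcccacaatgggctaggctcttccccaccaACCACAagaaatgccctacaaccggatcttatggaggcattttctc
The proximal element lay 163 bp upstream of the annotated TSS in Bglap and 132 bp upstream in Bglap2. The Bglap and Bglap2 stretches were identical at 84 of 86 bases. Both member regions held 2 copies of the core, the second at 634 and 607 bp upstream of the TSS, respectively. Short reads from such copies can be assigned to either copy, so the scores of these osteocalcin promoters cannot be fully told apart.

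Other high-scoring members carried the core within 50 bp of the region centre at quite different places in their genes. Smpd3, which encodes the neutral sphingomyelinase needed for bone mineralization, held it in coding sequence (chr8:108788807-108788872, minus strand), as did Adam1b, a gene of the membrane-bound ADAM proteases (chr5:121952147-121952212, minus strand), and Ggt5, a gamma-glutamyltransferase gene (chr10:75052530-75052595, plus strand). Ptgis, which encodes prostacyclin synthase, had copies 190 and 213 bp upstream of its TSS (chr2:167066284-167066349, minus strand), and the element near Mc1r, the melanocortin receptor gene, lay 793 bp upstream of the TSS (chr8:125930156-125930221, plus strand).
Smpd3: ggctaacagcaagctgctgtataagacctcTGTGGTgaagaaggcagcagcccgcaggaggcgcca
Adam1b: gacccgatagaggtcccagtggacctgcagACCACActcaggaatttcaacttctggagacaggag
Ggt5: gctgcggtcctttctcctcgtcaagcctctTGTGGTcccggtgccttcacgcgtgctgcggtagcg
Ptgis: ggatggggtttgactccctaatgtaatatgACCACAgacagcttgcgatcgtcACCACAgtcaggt
Mc1r: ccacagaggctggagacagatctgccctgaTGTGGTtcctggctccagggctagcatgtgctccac
Most members had no such element at the centre. The more common kind of member is shown by the 150 bases before the TSS of Prickle1, a planar cell polarity gene (chr15:93426323-93426472, minus strand), Agrn, the gene of the matrix proteoglycan agrin (chr4:155571537-155571686, minus strand), and Wnt4 (chr4:136833254-136833403, plus strand), with CpG dinucleotides in capitals.
Prickle1: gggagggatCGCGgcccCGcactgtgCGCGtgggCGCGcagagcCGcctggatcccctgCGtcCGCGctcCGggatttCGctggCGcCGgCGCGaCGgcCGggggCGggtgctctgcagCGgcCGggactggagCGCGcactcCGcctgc
Agrn: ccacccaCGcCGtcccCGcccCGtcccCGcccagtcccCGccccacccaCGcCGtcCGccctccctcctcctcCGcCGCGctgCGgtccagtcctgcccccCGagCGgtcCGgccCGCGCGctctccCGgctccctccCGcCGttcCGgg
Wnt4: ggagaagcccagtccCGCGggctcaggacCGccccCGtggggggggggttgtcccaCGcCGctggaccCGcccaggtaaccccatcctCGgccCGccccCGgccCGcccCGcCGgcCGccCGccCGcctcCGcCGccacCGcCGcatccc
They held 25, 23 and 20 CpG dinucleotides, respectively, and no TGTGGT on either strand. These 3 are GC-rich examples of this kind. The GC content of the 500 bp around their region centres was 77.8%, 77.0% and 81.4%, above the member upper quartile of 70.1%.

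Regions with the pattern of days 9 and 28 made up 21.1% of all merged regions (14319 of 67703) and 15.3% of the 12315 regions at promoters (1884 regions, 95% exact binomial interval 14.7% to 15.9%). At promoters the pattern was far less common than a peak at all 3 stages, which 8577 regions showed (69.6%), and more common than a peak at day 9 alone (1206 regions, 9.79%) or at day 28 alone (363 regions, 2.95%). Of the regions with the pattern of days 9 and 28, 13.2% lay at promoters, against 46.2% of the regions of all 3 stages. Intervals cover counting error over regions only. The day 0 list was the shortest, with 25457 peaks against 60596 at day 9 and 40330 at day 28, and the part of list length in the absence of day 0 peaks was not tested. The paper lists more raw reads for day 0 than for either later stage. When each list was reduced to the same number of highest-scoring peaks, 816 members were found.

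Scores are described within each list, since the lists differ in length. The score, as deposited from MACS, is -log10 of the p-value multiplied by 10, with a lowest value of 100 (p of 1e-10). It had a median of 353 at day 9 (quartiles 210 and 619) and 300 at day 28 (quartiles 183 and 524). As percentiles of each list these medians were 58.6 and 46.8, and 1350 of 1884 members (71.7%) had the higher percentile at day 9. The day 9 list is the longer, and distal regions of days 9 and 28 had median percentiles of 58.6 and 37.8. The percentiles of the 2 stages were correlated across members (Spearman coefficient 0.66, n = 1884), a description of regions that share libraries and depth. Few members ranked high: 63 reached the 90th percentile at day 9, 22 at day 28 and 17 in both lists. Promoters of all 3 stages had median percentiles of 85.2 at day 9 and 81.8 at day 28.

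**Figure D1:**
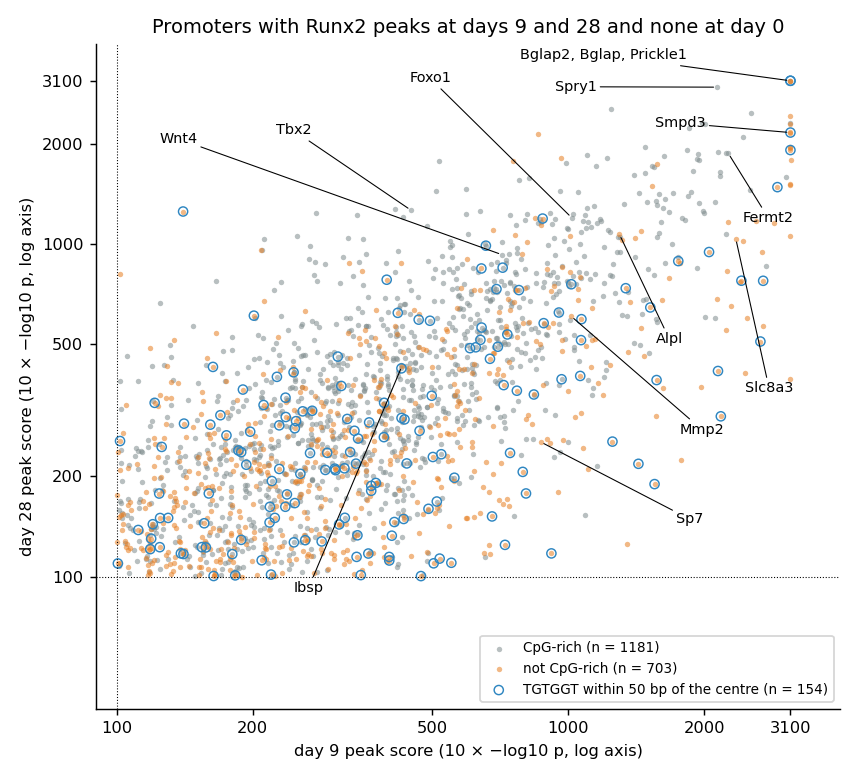
Day 9 score (x axis) against day 28 score (y axis) of the 1884 members, 10 times the negative log10 p on log axes; each point is a region, coloured by CpG content, with a ring where TGTGGT lies within 50 bp of the centre. Bglap2, Bglap and Prickle1 share the corner at 3100 in both lists, and most points lie between 100 and 1000 on both axes.

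The members with the highest mean percentile held the osteocalcin genes and Smpd3 beside genes of other roles. Prickle1, Bglap2 and Bglap reached the tied score of 3100 in both lists. These 3 were the only members at 3100 or above at day 28, against 16 at day 9. Rap1gap, which encodes a GTPase-activating protein for Rap1, scored 3100 at day 9 and 2312 at day 28. The uncharacterized 2600006K01Rik, whose member also lies within 1 kb of a TSS of Cercam, scored 3100 and 2304. Smpd3 followed with 3100 and 2166. At day 9 these promoters share the tied score, so that the day 28 score orders them. Maea, a gene first described for macrophage attachment to erythroblasts, scored 3113 at day 9 and 1785 at day 28, at an internal TSS. Adam1b scored 3100 and 1918. A further 3 are little-described genes that lie close together. Gm10394 (3100 and 2421), Gm10391 (3100 and 2168) and Duxbl (3100 and 1956) also belonged to the highest members. These lie in 1 group on chromosome 14 and each held its TGTGGT 657 bp upstream of the TSS, so that reads may again be shared between copies.

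At the other end, members lay close to each limit of the rule. Zbtb20, a zinc finger gene, had a day 9 score of 100.05 with 127 at day 28, and Asb10 had 100.11 with 176. Catsper1, a sperm cation channel gene, had 100 at day 28 with 190 at day 9, and Slc25a5, a mitochondrial ADP/ATP carrier gene, had 100.1 with 149 at a region 70 bp upstream of its TSS. By distance, the members of Maoa and Slc36a2 lay 998 bp from the TSS, whereas Caskin2 and Zswim6, at 1002 bp, fell just outside. Vmp1 and 2010002N04Rik were outside because of day 0 peaks with scores of 100.11 and 100.17, and their day 9 scores were 276 and 286. In all, 261 members (13.9%) scored under 200 at both stages, and 971 of the 8577 promoters of all 3 stages (11.3%) had a day 0 score under 150. Of all members, 126 (6.69%) had a day 0 peak within 500 bp of the region without touching it.

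Nearness to a TSS was part of the choice of members. Within the limit of 1 kb, the distance from the centre to the nearest TSS had a median of 139 bp (95% distribution-free interval 129 to 151 bp), against 119 bp (115 to 123 bp) in promoters of all 3 stages, and 1296 members (68.8%) lay within 250 bp. Of the centres, 694 (36.8%) lay upstream of the TSS. By annotation, 660 centres (35.0%) fell in 5′ UTR exons, 546 (29.0%) in introns, 407 (21.6%) outside genes and 264 (14.01%) in coding exons. Promoters with a TSS on each strand within 1 kb were less common among members (4.51%) than among promoters of all 3 stages (11.9%), a difference of -7.38 percentage points (95% Newcombe interval -8.48 to -6.15). Members had a further region of days 9 and 28 within 50 kb more often than promoters of all 3 stages did (65.6% against 57.6%, a difference of 7.92 points, 5.51 to 10.3). The share was 68.2% in promoters of day 9 only and 74.8% in distal regions of days 9 and 28.

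In base composition the members lay between the other kinds of Runx2-bound region. A region was called CpG-rich if the 500 bp around its centre had a GC content of at least 50% and an observed over expected CpG ratio of at least 0.6. This held for 1181 members (62.7%, 60.5% to 64.9%). The share was 84.9% of promoters of all 3 stages, 25.95% of promoters of day 9 only and 1.91% of distal regions of days 9 and 28, which lie over 10 kb from every protein-coding TSS. Members minus promoters of all 3 stages gave -22.2 points (-24.5 to -19.9), and members minus promoters of day 9 only gave 36.7 points (33.4 to 39.95). Of all 45961 TSS positions, 47.3% were CpG-rich.

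The Runx core was found near the centre of few members. TGTGGT on either strand lay within 50 bp of the centre in 154 members (8.17%, 6.98% to 9.50%), against 4.06% of promoters of all 3 stages, 19.7% of promoters of day 9 only and 30.1% of distal regions of days 9 and 28. The differences were 4.12 points (2.88 to 5.50), -11.5 points (-14.1 to -8.96) and -21.9 points (-23.4 to -20.3), respectively. The core was present within 50 bp of 5.05% of all TSS positions. Away from the centre, in windows of 50 bp that began 500 bp from the centre on either side, 4.51% of members held it. Thus members had the core at the centre more often than in their own flanks, whereas promoters of all 3 stages did not (4.06% and 4.77%). The centre is the midpoint of the joined region, and the median widths were 851.5 bp and 1306 bp, respectively. With a lower quartile of 1026 bp, most promoters of all 3 stages reached into their own flank windows. The part of region width in this contrast was not tested. Within 250 bp of the centre, the share with the core was higher in members by 7.44 points (5.34 to 9.62).

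**Figure D2:**
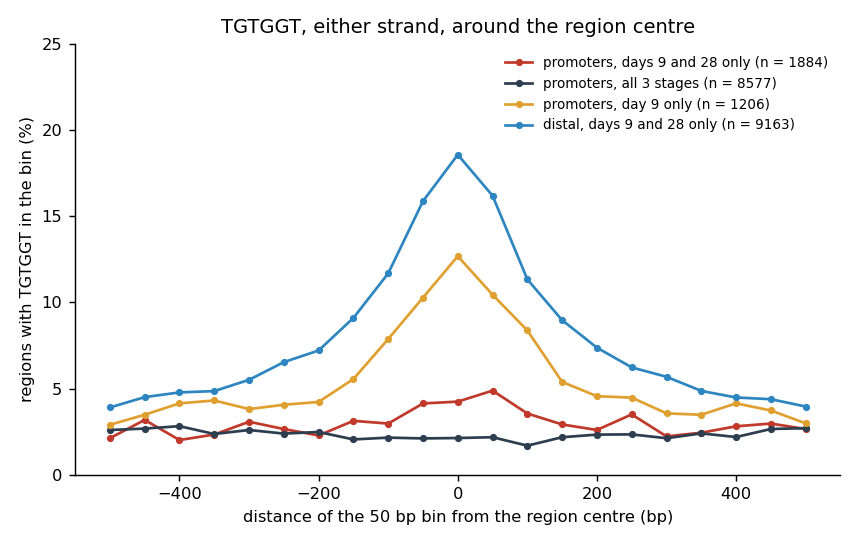
Share of regions (y axis, %) with TGTGGT on either strand in 50 bp bins by distance from the region centre (x axis, bp), for members, promoters of all 3 stages, promoters of day 9 only and distal regions of days 9 and 28; lines join bins. The member line stands at 4.25% in the central bin, between the flat line of promoters of all 3 stages and the higher peaks of the other 2 classes, and is highest in the next bin (4.88%).

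The core was unevenly spread over the 2 kinds of member. Of the 703 members that were not CpG-rich, 110 (15.6%, 13.0% to 18.5%) had TGTGGT within 50 bp of the centre, and of the 1181 CpG-rich members 44 did (3.73%, 2.72% to 4.97%). Among CpG-rich regions, members and promoters of all 3 stages differed by 0.63 points, with an interval from -0.40 to 1.93. Among regions that were not CpG-rich, the difference was 6.18 points (3.15 to 9.41), since 9.47% of such promoters of all 3 stages held the core. The shares were higher still in promoters of day 9 only (24.3%) and in distal regions (30.5%) that were not CpG-rich. Members with the core had a median day 28 percentile of 40.7 (35.5 to 45.7), and members without it 47.3 (45.6 to 48.6), whereas at day 9 these medians were 59.2 and 58.5. The day 28 median was 51.4 in CpG-rich members and 37.7 in the others, and most members with the core were not CpG-rich. The part of CpG content in the day 28 difference was not tested.

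**Figure D3:**
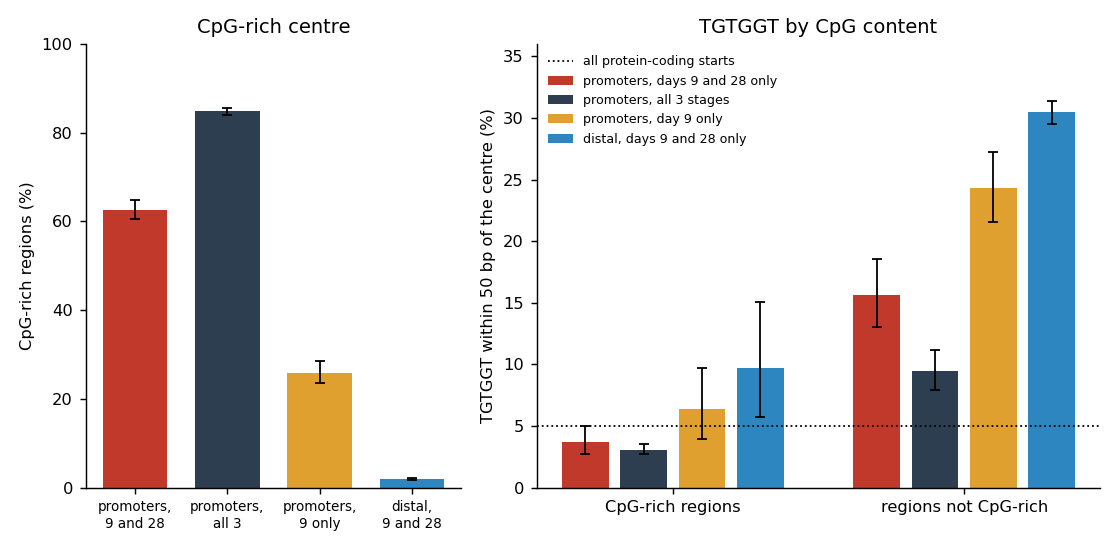
Left, share of CpG-rich regions (y axis, %) in the 4 classes; right, share with TGTGGT within 50 bp of the centre (y axis, %) for regions that are CpG-rich or not. Bars are shares with 95% exact binomial intervals, and the dotted line is the 5.05% of all protein-coding starts; among regions that were not CpG-rich, the member bar (15.6%) lies above that of promoters of all 3 stages (9.47%).

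Both differences from promoters of all 3 stages depended on the peak threshold. When a p-value of 1e-20 or 1e-50 was required in every list, 2836 and 4519 regions met the rule, of which 1171 and 389 overlapped a member. The difference in TGTGGT then was 0.69 points (-0.21 to 1.66) and -1.001 points (-2.003 to -0.06). The CpG difference was -9.31 points at 1e-20 and 2.26 points (0.79 to 3.78) at 1e-50. With equal numbers of peaks, TGTGGT differed by 2.92 points (1.33 to 4.89) and CpG-rich regions by -15.8 points. With a limit of 500 bp to a TSS the TGTGGT difference was 2.52 points (1.33 to 3.90), and with 100 bp on either side of the centre 6.32 points (4.72 to 8.06). The deficit of TGTGGT against distal regions lay between -20.5 and -32.0 points in each alternative.

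Elements of other factor families also differed between the classes. The ETS element CCGGAAG occurred within 50 bp of the centre in 3.50% of members, 6.35% of promoters of all 3 stages and 0.83% of promoters of day 9 only, and within 50 bp of 5.70% of all TSS positions. The E-box CAGCTG was found in 8.07% of members and 5.19% of promoters of all 3 stages, a difference of 2.88 points (1.63 to 4.27), and at 6.76% of all TSS positions. The TEAD element GGAATG occurred in 4.25% and 3.07% (1.18 points, 0.27 to 2.24), and at 3.84% of all TSS positions. The GC box GGGCGG was in 30.3% of members against 32.8% (-2.55 points, -4.82 to -0.22), and at 25.1% of all TSS positions. For the AP-1 element TGANTCA (1.65% and 1.19%), the CCAAT box ATTGG (9.82% and 9.95%), the E-box CACGTG (2.76% and 2.60%), the TATA element TATAAA (1.06% and 0.94%), the cAMP response element TGACGTCA (0.69% and 0.55%) and the second Runx core TGCGGT (4.30% and 4.77%), the intervals of the differences included 0. All were searched on both strands without regard to overlap, and 9 elements besides the 2 Runx cores were compared. The differences of these 9 were not split by CpG content, which differed between the classes, and were not repeated at other peak thresholds.

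The members were spread unevenly over the chromosomes. On the X chromosome 140 of 340 promoter regions were members (41.2%, 35.9% to 46.6%), against 1743 of 11972 on the autosomes (14.6%), a difference of 26.6 points (21.5 to 32.0). Chromosome 14 had 121 of 401 (30.2%, 25.7% to 34.9%) and chromosome 19 had 28 of 424 (6.604%, 4.43% to 9.40%). Of the X-linked promoter regions 40.3% held a day 0 peak, and on chromosome 14 54.6% did. Away from promoters the shares lay closer: among distal regions with peaks at both later stages, 61.6% on the X chromosome and 56.0% on the autosomes lacked a day 0 peak, whereas at promoters 52.8% and 17.1% did. X-linked promoters of all 3 stages had a median percentile of 70.1 at day 9 and 43.6 at day 0. The part of chromosome in the pattern was not tested. X-linked members included Maoa, which encodes monoamine oxidase A, Timp1, an inhibitor of metalloproteinases, Porcn, needed for Wnt secretion, and Pola1, the catalytic subunit of DNA polymerase alpha. On the autosomes alone the difference in TGTGGT from promoters of all 3 stages was 4.08 points and the CpG difference -23.1 points.

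**Figure D4:**
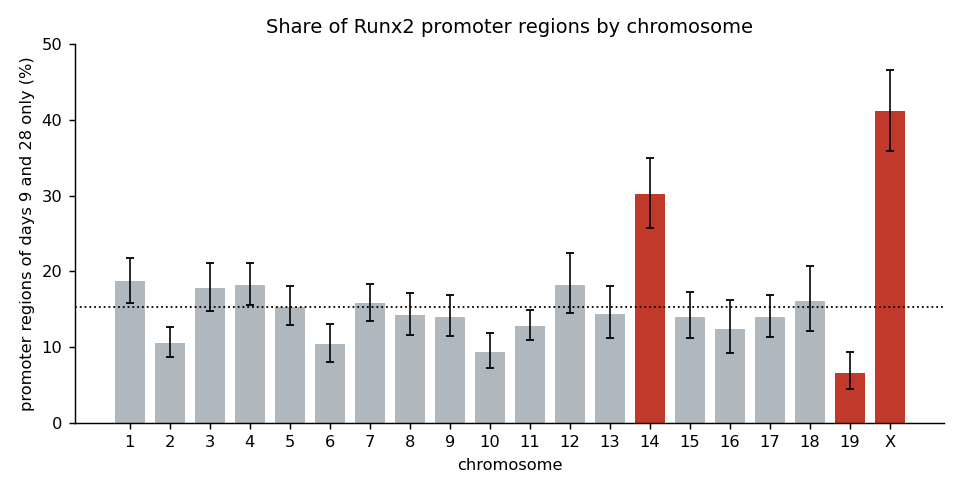
Share of Runx2 promoter regions that are members (y axis, %) by chromosome (x axis; red marks the 3 chromosomes described), with 95% exact binomial intervals; the dotted line is the 15.3% of all promoter regions. Chromosomes 14 (30.2%) and X (41.2%) lie above the line and chromosome 19 (6.604%) below it.

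Genes were then grouped by function. Of the 22359 protein-coding genes, 8.37% had a member at a TSS and 41.7% had a region of all 3 stages. Of the 12020 genes with any Runx2 region at a TSS, 15.6% had a member. Lists are described by counts beside these shares, since no test over genes was made.

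Of 28 bone matrix and mineral genes, 7 had a member (25%, 10.7% to 44.9%), 9 had a region of all 3 stages and 10 had no Runx2 region at a TSS. Besides Bglap, Bglap2 and Smpd3, these were Slc8a3, Alpl, Ibsp and Pdpn. Slc8a3, which encodes a sodium-calcium exchanger of the plasma membrane, scored 2346 at day 9 and 1040 at day 28, in a region centred 524 bp upstream of the TSS. Alpl, the tissue-nonspecific alkaline phosphatase that frees phosphate for mineral, scored 1297 and 1070 in an intron, 657 bp from the TSS. Ibsp, bone sialoprotein, scored 428 and 430 at 95 bp downstream of the TSS, and Pdpn, a marker of young osteocytes, 143 and 264. The regions of Alpl, Ibsp and Pdpn held no TGTGGT over their whole width, and that of Slc8a3 held 1, 452 bp upstream of the TSS. Thus the scores of bone genes ranged from 3100 in both lists to below the member median. With a limit of 500 bp to the TSS, 4 of the 7 remained.

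Of 44 transcription factor genes of the osteoblast lineage, 9 had a member (20.5%, 9.80% to 35.3%) and 31 a region of all 3 stages. Sp7, which encodes osterix and acts downstream of Runx2 in osteoblast commitment, scored 868 at day 9 and 254 at day 28, without TGTGGT in its region of 2710 bp. Foxo1 scored 1017 and 1201, Tbx2 448 and 1265, and Nfatc1 546 and 980, each with the higher percentile at day 28. Dlx6, a homeobox gene of the developing jaw and limbs, scored 1015 and 757 and was the one factor gene of the 9 with TGTGGT within 50 bp of the centre. Tcf7, a nuclear partner of beta-catenin, scored 582 and 418. Msx2, Trps1 and Lef1 were the others, of which Trps1 (215 and 320) also had the higher percentile at day 28.

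Of 43 collagen genes, 7 had a member (16.3%, 6.81% to 30.7%, an interval that includes the 8.37% of all genes), 16 had a region of all 3 stages and 20 had no Runx2 region at a TSS. Of the 23 collagen genes with a region, the members made up 30.4%, and of the 39 such genes of osteoblast transcription factors 23.1%. The highest score was that of Col15a1, a basement membrane collagen, at 751 and 450. Col8a2 scored 408 and 456, the fibrillar Col11a1 261 and 368, and Col6a1, a chain of the beaded microfibrils, 467 and 135. Col18a1 (156 and 145) and Col24a1 (170 and 110) lay near the threshold, as did Col23a1 (105 and 153.5). With equal numbers of peaks, or at 1e-50, 2 collagen genes were counted.

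Non-collagen matrix genes and the enzymes that act on them had members at a share close to that of bone genes. Of 75 other matrix protein genes, 18 had one (24.0%, 14.9% to 35.3%). Smoc2, a calcium-binding matricellular protein gene, scored 3100 and 1060. Agrn scored 1024 and 1228, Fbln7 843 and 558, and the laminin gene Lama4 668 and 515. Of 67 genes of matrix enzymes and inhibitors, 15 had a member (22.4%, 13.1% to 34.2%). These included the gelatinase gene Mmp2 (1013 and 607), the membrane-type metalloproteinase gene Mmp14 (559 and 459), Bmp1, which encodes a procollagen C-proteinase (822 and 676), and Adamts9 and Adamts10, with day 9 scores of 676 and 597.

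The Wnt pathway was described by the roles of its genes. Of 69 Wnt pathway genes, 18 had a member (26.1%, 16.3% to 38.1%). Of the 18 ligand genes, 9 did (50.0%, 26.02% to 74.0%), and 2 had a region of all 3 stages. Of 15 receptor genes, 3 had a member (20%, 4.33% to 48.1%) and 9 a region of all 3 stages, and none of 11 secreted antagonist genes had a member, which allows a share of up to 28.5%. However, 6 of these 11 had no Runx2 region at a TSS. Among genes with one, 9 of 11 ligand, 3 of 12 receptor and none of 5 antagonist genes had a member. The differences between these roles were not tested, and the intervals of ligands and receptors overlap. The ligand genes were Wnt1, Wnt4, Wnt5a, Wnt5b, Wnt6, Wnt7b, Wnt10a, Wnt10b and Wnt11, named together after their values were seen. Wnt4 scored 713 at day 9 and 929 at day 28, Wnt5b 659 and 724, and Wnt6 618 and 407. The highest-scoring member was CpG-rich in 7 of the 9 and held TGTGGT at the centre in 1, Wnt10b. Dvl1, the cytoplasmic transducer of Wnt signals, scored 727 and 897, and Ror2, a receptor for Wnt5a, 746 and 528.

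Of 57 genes of the BMP and TGF-beta pathway, 12 had a member (21.1%, 11.4% to 33.9%), and 32 had a region of all 3 stages. Tgfb1, the ligand gene, scored 1636 and 1370. The antagonist gene Chrd scored 1246 and 804, and the inhibitory Smad7 1004 and 746. Fstl1 (206 and 535), Fstl3 (275 and 350) and Ski (550 and 199), all of which encode proteins that restrain the pathway, scored lower. Of 47 genes of FGF, IGF and PDGF signalling, 12 were counted (25.5%, 13.9% to 40.3%), led by Spry1, an inhibitor of receptor tyrosine kinase signals, with 2134 at day 9 and 2966 at day 28. Spry2 scored 749 and 384, Fgf9 566 and 845, and Igf2r 531 and 512. Fgfr2 is counted through a single annotated transcript whose start lies beside Ctbp2, away from its other starts. Of 37 genes of the Notch and hedgehog pathways 5 had a member, among them Hes6 (999 and 771), Dll1 (1105 and 390) and Notch1 (700 and 421).

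Lists of genes that serve every cell mostly had regions of all 3 stages. Of 33 genes of protein folding and stress in the endoplasmic reticulum, 32 had a region of all 3 stages and 1 had a member, Trib3 (450 and 389). Of 31 proteasome genes, 27 had a region of all 3 stages and 2 a member. Of 78 cytosolic ribosomal protein genes these counts were 71 and 5. The member shares of proteasome (6.45%, 0.79% to 21.4%) and ribosomal protein genes (6.41%, 2.11% to 14.3%) have intervals that include the 8.37% of all genes. Actin, adhesion and contraction genes had 7 members of 82 (8.54%), close to the 8.37% of all genes, but with high scores for Fermt2, which encodes the integrin activator kindlin-2 (2258 and 1877), and Cdh2, N-cadherin (1865 and 1431). Of 71 cell cycle and DNA replication genes, 13 had a member (18.3%, 10.1% to 29.3%), led by Rb1 (1224 and 1101), and 53 had a region of all 3 stages. Of the 68 genes of this list with any Runx2 region at a TSS, 19.1% had a member, beside 15.6% of all such genes.

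Genes that mark other cell types had members at shares from 3.45% (neuron) to 16% (fat), with intervals that include the 8.37% of all genes. The counts were 2 of 31 for muscle, 2 of 31 for blood and vessel, 1 of 29 for neuron, 2 of 19 for cartilage and 4 of 25 for fat genes. Many of these genes had no Runx2 region at a TSS. Of those with one, the share with a member was 33.3% for muscle (6 genes), 26.7% for fat (15 genes), 25% for cartilage (8 genes), 20% for blood and vessel (10 genes) and 8.33% for neuron genes (12 genes), beside 15.6% of all such genes. Zfp423, a regulator of preadipocyte commitment in the fat list, scored 3100 and 1508, and Sox9 in the cartilage list 958 and 238. Interferon-stimulated genes (6 of 52), cytokine and osteoclast signal genes (6 of 48) and AP-1 and immediate early genes (4 of 30) had shares between 11.5% and 13.3%. Of those with a Runx2 region at a TSS, 22.2% (27 genes), 25% (24 genes) and 14.8% (27 genes) had a member, respectively. This share was 38.9% for bone matrix and mineral genes (18 genes) and 37.5% for other matrix proteins (48 genes). It was 33.3% for matrix enzymes and inhibitors (45 genes) and 37.5% for the Wnt pathway (48 genes). It was 28.6% for BMP and TGF-beta (42 genes) and 31.6% for FGF, IGF and PDGF genes (38 genes). Olfactory receptor genes, of which 2 of 1087 had a member, lay far below the share of all genes, but 1068 had no Runx2 region at a TSS. Of the 19 with one, 10.5% had a member.

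**Figure D5:**
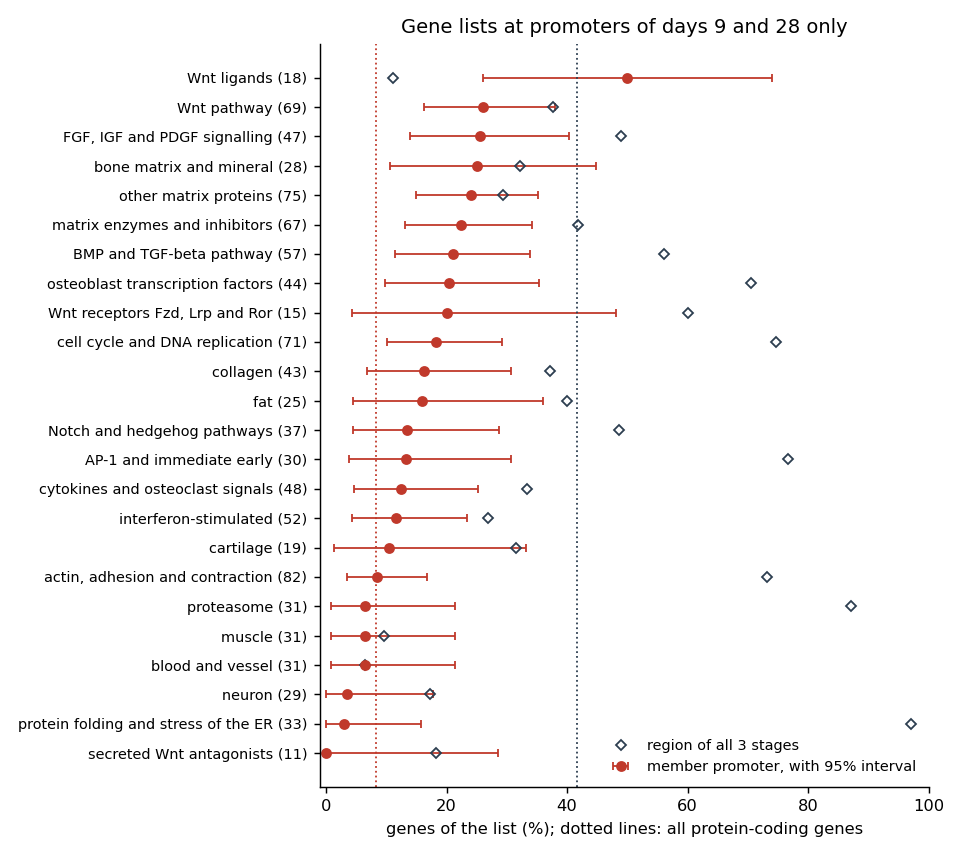
Share of the genes of each list (y axis, with the number of genes) that have a member at a TSS (filled points with 95% exact binomial intervals) and that have a region of all 3 stages (open diamonds), in % on the x axis; dotted lines give the 8.37% and 41.7% of all protein-coding genes. Wnt ligands lie highest for members (50.0%), and genes of protein folding highest for regions of all 3 stages (97.0%).

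A gene could have both kinds of promoter. Of the 1871 genes with a member, 296 (15.8%) also had a region of all 3 stages at a TSS, and 1419 (75.8%) had no other Runx2 region at a TSS. Maea had a region of all 3 stages at the TSS 22422 bp upstream, which scored 347, 3027 and 2018 at days 0, 9 and 28, beside 3113 and 1785 at its member for the later stages. In Zfp423 the starts lay 155156 bp apart, and the region of all 3 stages scored 578, 3218 and 2815. A second Zfp423 member (932 and 1191) lay directly beside that region, at the same TSS, so that this start had both patterns. The starts of Calm3, a calmodulin gene, lay 6911 bp apart, with 2854 and 1160 at the member and 1244, 3100 and 3100 at the other. In Cdk2ap1, with starts 2438 bp apart, the member scored higher (1530 and 1716) than the region of all 3 stages at the same stages (469 and 504). For Ctbp2 the 2 regions were separated by 112 bp.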

How the data were processed

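MC3T3-E1 subclone 4 cells were profiled by Runx2 ChIP-Seq at days 0, 9 and 28. According to the labels and the methods of the study, base calls came from CASAVA (version 1.6), reads were mapped to mm9 with Bowtie (version 0.12.8), the 2 biological libraries of each stage were pooled, and peaks were called with MACS (version 1.4.1) against day 9 input DNA at a p-value of 1e-10. The score deposited by the authors in each peak list is the MACS score, -log10 of the p-value multiplied by 10. Many strong peaks are tied at 3100, and the lists hold no read counts, so that the number of reads behind a single peak is unknown. By stage, the paper lists most raw reads at day 0. Input DNA and read signal were not analysed here.

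All peaks of the 3 lists lay within the NCBIM37 chromosomes. The TSSs of 51710 protein-coding transcripts came from GENCODE (version M1), and a gene was given to a region if a TSS lay within 1 kb of the region centre. Sequence was read from NCBIM37 with pysam (version 0.24.0) and samtools (version 1.23.1). Shares are given with exact Clopper-Pearson 95% intervals, differences of shares with Newcombe intervals and medians with distribution-free intervals (Python 3.11.15, SciPy 1.17.1), which cover counting error only and treat neighbouring regions as independent. The scripts were tested on simulated peaks and sequences. The members, gene lists and comparisons were chosen with earlier results of these data known.

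Some items that the rule below selects are not reported here. Genes were named by rule: the 12 members with the highest mean of their percentiles in both lists, up to 6 genes of each list by that mean, up to 8 members with TGTGGT within 50 bp of the centre, the 2 members nearest each limit on either side, and up to 6 genes with a member and a region of all 3 stages at different starts. The seventh and later genes of a list, where named, were chosen after their values were seen, as were Timp1, Porcn and Pola1 on the X chromosome.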

Additional observations from a re-analysis of the deposited data

How the results depend on the processing

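With a p-value of 1e-20 required in every list, the number of members was 2836 and TGTGGT at the centre exceeded promoters of all 3 stages by 0.69 points. At 1e-50 the number was 4519, the TGTGGT difference -1.001 points, the CpG-rich difference 2.26 points, and 2 collagen genes had a member. With equal numbers of highest-scoring peaks there were 816 members, 815 of which overlapped those reported, and 2 collagen genes. With a limit of 500 bp to a TSS, 4 bone matrix and mineral genes had a member, and the TGTGGT difference was 2.52 points, against 6.32 points in a window of 100 bp on either side of the centre. By construction a stricter threshold moves promoters with weak day 0 peaks into the pattern. The other alternatives changed no direction, no call and no count by over 1.5 times: joining peaks by 50% of the shorter peak (1904 members), no day 0 peak within 500 bp (1758), the centre of the highest day 9 peak (1887), CCDS transcripts (1609), a second Runx core, stricter CpG limits and, chosen after the data were seen, autosomes alone (1743). No paired analysis was possible because each stage has 1 pooled peak list.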

Other observations

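Gene families outside the lists of bone and signalling genes are given beside the 8.37% of all genes that had a member, which lies within the intervals of solute carriers and NADH dehydrogenase subunits and below that of Zfp genes. Of 327 solute carrier genes, 34 had one (10.4%, 7.31% to 14.2%), led by Slc6a9, a glycine transporter gene, with 1885 at day 9 and 1662 at day 28. Besides Slc8a3, the next was Slc25a15, a mitochondrial ornithine carrier gene, with 1180 and 1173. Slc39a14, a zinc and iron importer gene, scored 1634 and 878. Of 340 zinc finger genes named Zfp, 44 had a member (12.9%, 9.56% to 17.0%) and 200 had a region of all 3 stages. Of 41 genes of NADH dehydrogenase subunits, 5 had a member (12.2%, 4.08% to 26.2%), with 36 at all 3 stages. Among genes with a Runx2 region at a TSS, 15.6% of all genes had a member. For solute carriers this share was 19.3% (176 genes), for Zfp genes 17.2% (256 genes) and for NADH dehydrogenase subunits 12.2% (41 genes). Keratin genes had 1 member of 46.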
